A study of Mus musculus with 88 samples.

Results

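Cells make cholesterol from acetyl-CoA through the mevalonate and sterol pathway, and 8 genes of that pathway and its control were followed in mouse hearts: Hmgcs1, Idi1, Fdps, Fdft1, Sqle, Lss, Cyp51 and Srebf2. They were found by gene symbol, as the probe sets that the platform annotation assigns to one of these symbols alone. Under that rule 7 of the 8 genes had a signal, on 10 probe sets, against 8251 genes with a signal on the whole array. Srebf2 had no such probe set and was not analysed here. The set therefore describes sterol synthesis, and sterol uptake entered only through a separate list of other genes.

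Hearts were taken whole from 88 mice aged 21, 31 or 43 days, and each mouse had its own array. The mice called dKO lack apolipoprotein E and SR-BI, the product of Scarb1 that takes up lipid from high-density lipoprotein (genotype SR-BI-/- apoE-/-). The mice called HET keep 1 working SR-BI allele and lack apolipoprotein E as well (SR-BI+/- apoE-/-), so every mouse in the study lacks apolipoprotein E and no wild type was compared. Probucol, a lipid-lowering antioxidant drug, was given in the diet to 6, 8 and 6 dKO mice at the successive ages, against 10, 10 and 12 dKO mice on chow. It was given to 3, 3 and 2 HET mice, against 9, 10 and 9 HET mice on chow. In the design text, chow-fed dKO mice are free of detectable coronary disease at 21 days, have small infarcts and failing hearts at 31 days and large infarcts at 43 days, and chow-fed HET mice serve as disease-free controls.

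Sterol synthesis is set by supply. When membranes of the endoplasmic reticulum run low in cholesterol, SREBP2, the product of Srebf2, is carried to the Golgi, cleaved and sent to the nucleus, where it raises the genes of the pathway. When sterols are plentiful SREBP2 is held back, while oxidised sterols activate the nuclear receptor LXR, which raises exporters such as Abca1 and the lipogenic factor gene Srebf1. In the pathway, Hmgcs1 makes the HMG-CoA that HMG-CoA reductase turns into mevalonate, Idi1 isomerises the isoprene unit and Fdps joins isoprene units into farnesyl diphosphate. Fdft1 joins a pair of farnesyl units into squalene, Sqle oxidises squalene, Lss closes the ring to lanosterol and Cyp51 removes a methyl group from lanosterol.

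The promoters of 4 of the 7 measured genes were in the RefSeq table of build GRCm38.p6 (Hmgcs1, Idi1, Lss and Cyp51), and Sqle, Fdps and Fdft1 are named only. The 250 bases before the start of Hmgcs1 (chr13:119690101-119690350, plus strand) and of Idi1 (chr13:8885356-8885605, plus strand) are shown. The first holds the letters TCACNCCAC, a form of the element that SREBP proteins bind, and the second does not hold these letters. Capitals mark the sterol response element, searched as TCACNCCAC, and the NF-Y motif CCAAT, which reads ATTGG on the other strand.
Hmgcs1: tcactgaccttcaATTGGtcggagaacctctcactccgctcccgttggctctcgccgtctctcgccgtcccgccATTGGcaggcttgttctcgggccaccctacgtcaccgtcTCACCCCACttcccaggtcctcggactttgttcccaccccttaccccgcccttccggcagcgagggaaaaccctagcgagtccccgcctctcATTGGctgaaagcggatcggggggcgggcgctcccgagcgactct
Idi1: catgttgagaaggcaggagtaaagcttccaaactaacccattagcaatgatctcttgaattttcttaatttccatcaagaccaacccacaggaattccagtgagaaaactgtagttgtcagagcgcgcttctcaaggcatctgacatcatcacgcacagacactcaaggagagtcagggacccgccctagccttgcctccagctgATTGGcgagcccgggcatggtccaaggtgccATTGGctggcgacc
The searched form of the sterol response element was in 1 of the 4 promoters, that of Hmgcs1, at 137 to 129 bases before the start. It was in 1.24% of all 32851 promoters of the table. Other forms were not searched, so a promoter without these letters may still hold the element. CCAAT was in 4 of 4, against 37.4% of all promoters, and the Sp1 motif GGGCGG was in 4 of 4, against 35.7%. These shares count both strands over 250 bases before and 50 after the start, and the 3 motifs shared no base in these promoters. A match describes the letters of the window and not a bound site.

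Signals are given as log2 of the deposited linear signal, with values below a floor of 4.22 (2.08 in log2) raised to it. Of the 7 genes, 3 were bright enough for the filter of the main test, which kept probe sets with a mean signal of at least 30.2: Hmgcs1 with a mean of 114, Fdft1 with 109 and Fdps with 108. Under it lay Sqle with 25.6, Cyp51 with 23.5, Idi1 with 17.7 and Lss with 15.5, so Sqle was the nearest gene outside and Fdps the nearest inside. Idi1 was at the floor on 5 of 88 arrays, Cyp51 on 3 and the other genes on 0. The 4 dim genes were tested in a second fit over all 8251 genes without the filter, and differences of values near the floor are understated.

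Array brightness and cell composition moved with the groups, and their part in the results below was not tested. The median signal of an array was 27.8 to 75.4 over the series. It had a median of 57.6 in dKO chow hearts at 43 days, against 42.8 in HET chow hearts of that age. For the main comparisons the median difference of all genes is therefore given, and many values are repeated after every array had been centred on its own median. The summed signal of 10 macrophage markers at 43 days was 8530, 12800 and 17000 (lowest, median and highest) in dKO chow hearts, against 1150, 1530 and 2550 in HET chow hearts. The sum of 9 fibroblast and matrix markers was 16400, 20400 and 25200, against 6570, 7780 and 9560, and that of 4 erythroid markers had medians of 14100 and 4710. The 8 measured cardiomyocyte markers, none at the floor on every array, summed to 35600, 37800 and 42900, against 44700, 48600 and 52800. In bulk hearts fewer cells of a type and less RNA per cell cannot be told apart. Arrays were also split by a score over genes picked from deviations from the group means. The score itself kept the group means, so the split may carry group differences. By it 20 arrays stood apart from the other 68. This smaller set held 6 dKO chow hearts at 21 days, 0 at later ages, and 2, 6 and 3 HET chow hearts at the successive ages. The targeted gene Scarb1 still gave a signal in dKO chow hearts but was lower there than in HET chow hearts, by a log2 difference of -1.58, -0.75 and -0.69 at 21, 31 and 43 days (limma, adjusted p = 5.53e-11, 3.74e-04 and 2.47e-04).

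The first comparison asked how the pathway stood in dKO hearts as disease developed. On chow each gene was tested on its brightest probe set. Of the 3 genes tested, Fdps was the 1 that passed the test at 43 days, with a lower signal in dKO hearts than in HET hearts. On these probe sets 0 of 3 passed the test at 21 or 31 days, also before adjustment. The calls over all genes were 2.08% at 21 days, 24.3% at 31 days and 49% at 43 days, so 1 of 3 is near the background. Fdps at 43 days had a log2 signal of 6.18, 6.58 and 7.01 (lowest, median and highest of 12) in dKO hearts, against 6.65, 6.93 and 7.59 (of 9) in HET hearts. Of the dKO hearts 7 lay below the lowest HET heart and 11 below the HET median, with overlap among the rest. The difference was -0.40 ± 0.13 (SE; limma, adjusted p = 0.00818), while the median of all genes was 0.26 higher in dKO hearts. After median centring it was -0.73 at 43 days (adjusted p = 3.42e-09, with 49.1% of all genes called) and -0.35 at 31 days (adjusted p = 0.0069, with 26.8% called). At 21 days it was then 0.04, and 0 of 3 genes passed, with 3.46% called. The call at 43 days was lost within the larger array set alone, where 12 dKO hearts averaged 6.61 and 6 HET hearts 6.95 (adjusted p = 0.0516).

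**Figure D1:**
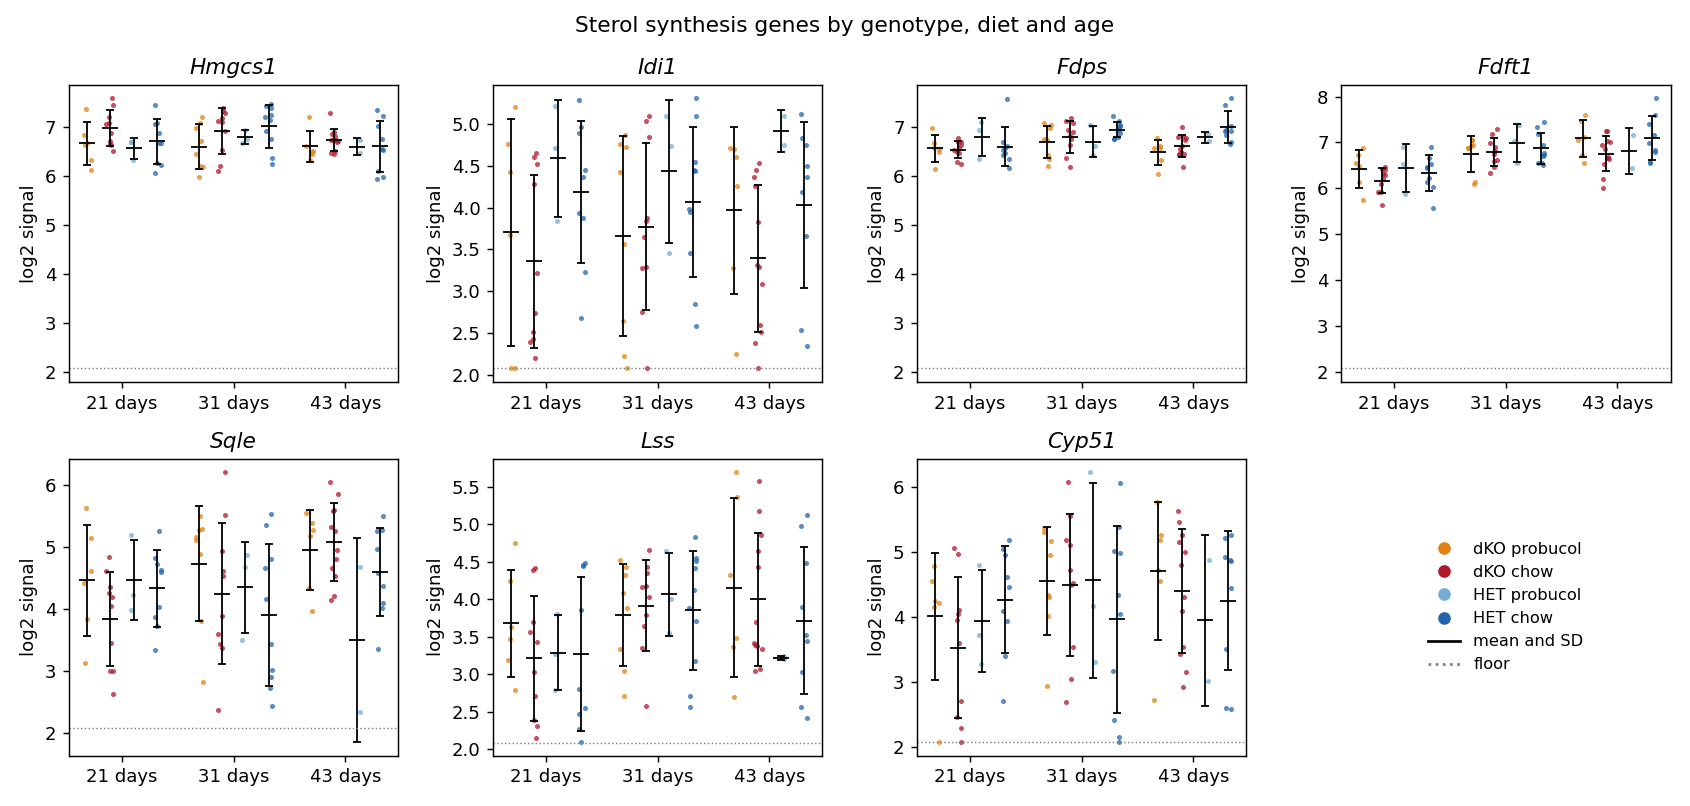
Log2 signal of the 7 measured sterol synthesis genes on each array, by age and, within an age from left to right, dKO probucol, dKO chow, HET probucol and HET chow hearts. Horizontal marks are group means with SD bars and the dotted line is the floor at 2.08. For every gene, groups that are neighbours in the order of their means overlap. Group means of Idi1 run lower in dKO than in HET groups, and those of Fdft1 are lowest at 21 days.

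Hmgcs1, whose product feeds the rate-limiting step of the pathway, did not pass the test at any age. At 21 days it was 6.52, 6.97 and 7.59 in dKO chow hearts, against 6.06, 6.68 and 7.44 in HET chow hearts. At 43 days it was 6.45, 6.74 and 7.30, against 5.94, 6.56 and 7.35, so the dKO range lay inside the HET range. The differences were 0.27, -0.10 and 0.14 at 21, 31 and 43 days, with a 95% interval at 43 days of -0.21 to 0.48. After median centring the 43 day value turned to -0.19 (adjusted p = 0.285).

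Fdft1, the squalene synthase, had values of 6.01, 6.76 and 7.26 in dKO chow hearts at 43 days, against 6.56, 6.98 and 7.96 in HET chow hearts. Of the 12 dKO hearts 3 lay below the HET range and none above it. The difference was -0.34 ± 0.17 and missed the threshold (adjusted p = 0.0873), and at 21 and 31 days it was -0.17 and -0.08. Relative to the array median Fdft1 was lower by a difference of -0.67 at 43 days (adjusted p = 3.85e-05, with 49.1% of all genes called). On that scale 8 of 12 dKO hearts lay below all 9 HET hearts.

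Fdps has 4 probe sets, and they did not give the same picture. The brightest, 160424_f_at, gave the values above, and its suffix marks a probe set that may match members of a gene family, so related transcripts cannot be told apart from Fdps. On 99098_at Fdps was 6.38 ± 0.28 in dKO chow hearts at 43 days and 6.47 ± 0.28 in HET chow hearts (SD, n = 12 and 9), a difference of -0.09 (adjusted p = 0.64). On 162281_at it was 5.50 ± 0.70 in dKO and 5.58 ± 0.91 in HET hearts, and the difference was -0.08 (adjusted p = 0.894). The fourth, 162217_r_at, was at the floor on 47 of 88 arrays. When the 3 probe sets past the filter were averaged the difference was -0.19 and the call was lost (adjusted p = 0.347). After median centring the means in dKO and HET chow hearts at 43 days were 5.96 and 6.39 on 99098_at, and 5.085 and 5.496 on 162281_at. Centring lowers the mean difference between these groups by the same amount on every probe set. The lower centred values of the other probe sets therefore add no separate evidence. At 21 days 99098_at differed by -0.44 between dKO and HET chow hearts (limma, p = 0.00234, adjusted p = 0.0882), against -0.06 on 160424_f_at. All 10 dKO hearts of that age lay below the HET median on 99098_at, and 1.38% of all probe sets were called.

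**Figure D2:**
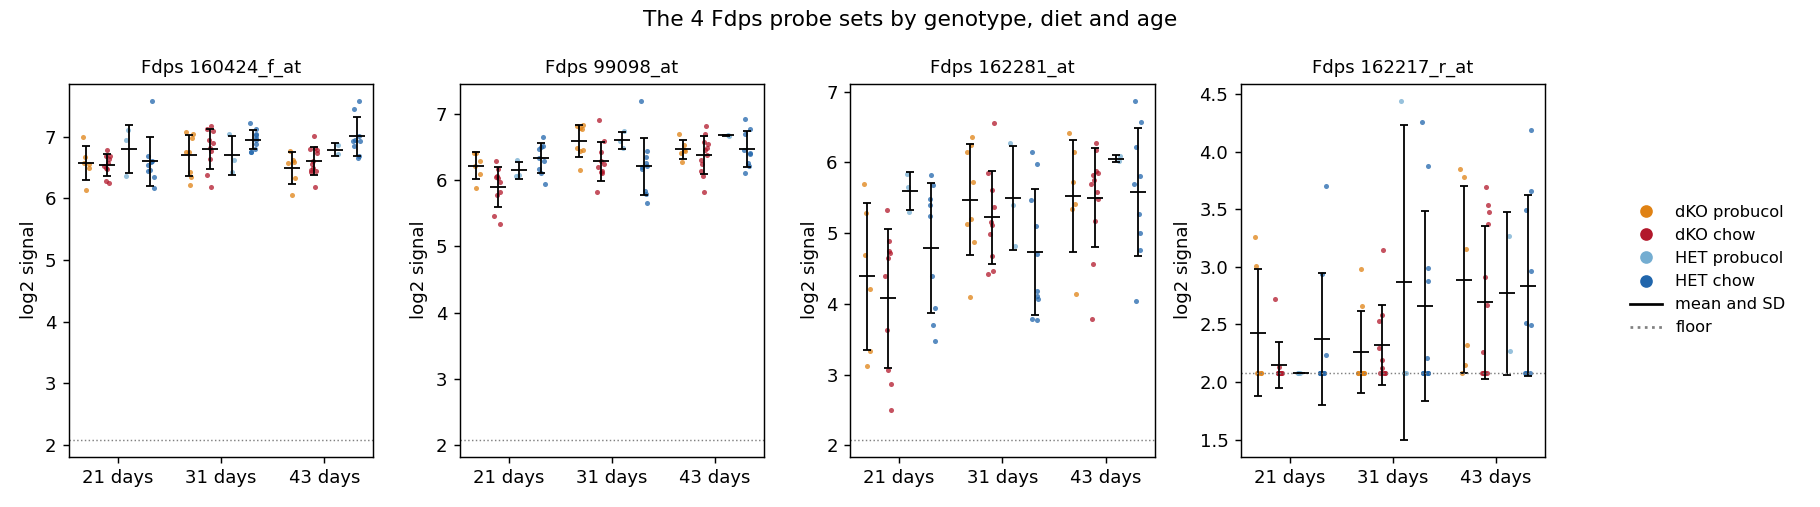
Log2 signal of the 4 Fdps probe sets on each array, grouped as dKO probucol, dKO chow, HET probucol and HET chow at each age, with group means, SD bars and the floor as a dotted line. At 43 days dKO chow hearts lie under HET chow hearts on 160424_f_at, with means of 6.61 and 7.01, and the 2 groups are level on 99098_at and 162281_at, while 162217_r_at sits near the floor.

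Idi1, the isomerase, had lower means in dKO than in HET chow hearts at all 3 ages, and no age passed the test. At 43 days it was 2.08, 3.30 and 4.54 in dKO chow hearts, against 2.34, 4.36 and 5.11 in HET chow hearts. Of 12 dKO hearts 10 lay below the HET median, though only 1 lay below the HET range. The differences in the fit over 8251 genes were -0.83, -0.29 and -0.64 at 21, 31 and 43 days (adjusted p = 0.341, 0.704 and 0.251, with 1.51%, 18.2% and 36.7% of all genes called). After median centring the 43 day value was -0.97 (adjusted p = 0.0541).

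The last 3 enzymes of the set did not differ past the threshold between genotypes on chow. Sqle, which catalyses the first oxygen-requiring step of sterol synthesis, was 4.14, 5.10 and 6.04 in dKO hearts at 43 days, against 3.35, 4.58 and 5.50 in HET hearts. Its difference was 0.48, with an interval of -0.26 to 1.22. Lss, the lanosterol synthase, was 3.04, 3.55 and 5.58 in dKO hearts, against 2.42, 3.52 and 5.12 in HET hearts, a difference of 0.28 ± 0.37 (SE). Cyp51, the lanosterol demethylase, had a mean of 4.40 ± 0.95 in dKO and 4.25 ± 1.07 in HET hearts, a difference of 0.14 with an interval of -0.76 to 1.04. The intervals of all 3 genes reached to about a doubling or beyond. After median centring the 3 differences were 0.15 for Sqle, -0.05 for Lss and -0.19 for Cyp51, and the median of all 8251 genes as deposited was 0.19.

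Probucol in dKO hearts was compared with chow in dKO hearts at the same age. None of the 3 bright genes passed the test at any age, against 0.176%, 29.2% and 45.9% of all genes called at 21, 31 and 43 days. None of the 7 did so without the filter, where 0.133%, 20.3% and 33.7% were called, and none had an unadjusted p under 0.05 on its brightest probe set. The Fdps probe set 99098_at rose by 0.32 at 21 days and 0.31 at 31 days (limma, p = 0.0412 and 0.0333, adjusted p = 0.577 and 0.135). Fdft1 at 43 days was 6.55, 7.09 and 7.60 in dKO probucol hearts, against 6.01, 6.76 and 7.26 in dKO chow hearts, and 2 of 6 probucol hearts lay above the chow range. Its difference was 0.33 ± 0.19 (limma, adjusted p = 0.155), while the median of all genes was -0.32. Relative to the array median Fdft1 rose with probucol by 0.74 (adjusted p = 7.07e-05) and Fdps by 0.29 (adjusted p = 0.0344), with 41.6% of all genes called. On that scale 0 of 3 passed at 21 or 31 days, with 0.317% and 23.9% called.

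Fdps as deposited did not show that rise. It was 6.05, 6.58 and 6.78 in dKO probucol hearts at 43 days, against 6.18, 6.58 and 7.01 in dKO chow hearts, and the difference was -0.12 (adjusted p = 0.538). Hmgcs1 was 6.33, 6.51 and 7.21, against 6.45, 6.74 and 7.30, with a difference of -0.14 that turned to 0.28 after median centring (adjusted p = 0.613 and 0.184). The dim genes gave 0.58 for Idi1, 0.31 for Cyp51, 0.15 for Lss and -0.13 for Sqle, each with an interval that held 0. At 43 days the macrophage marker sum had a median of 1780 in dKO probucol hearts and 12800 in dKO chow hearts, and the cardiomyocyte sum 54900 and 37800.

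**Figure D3:**
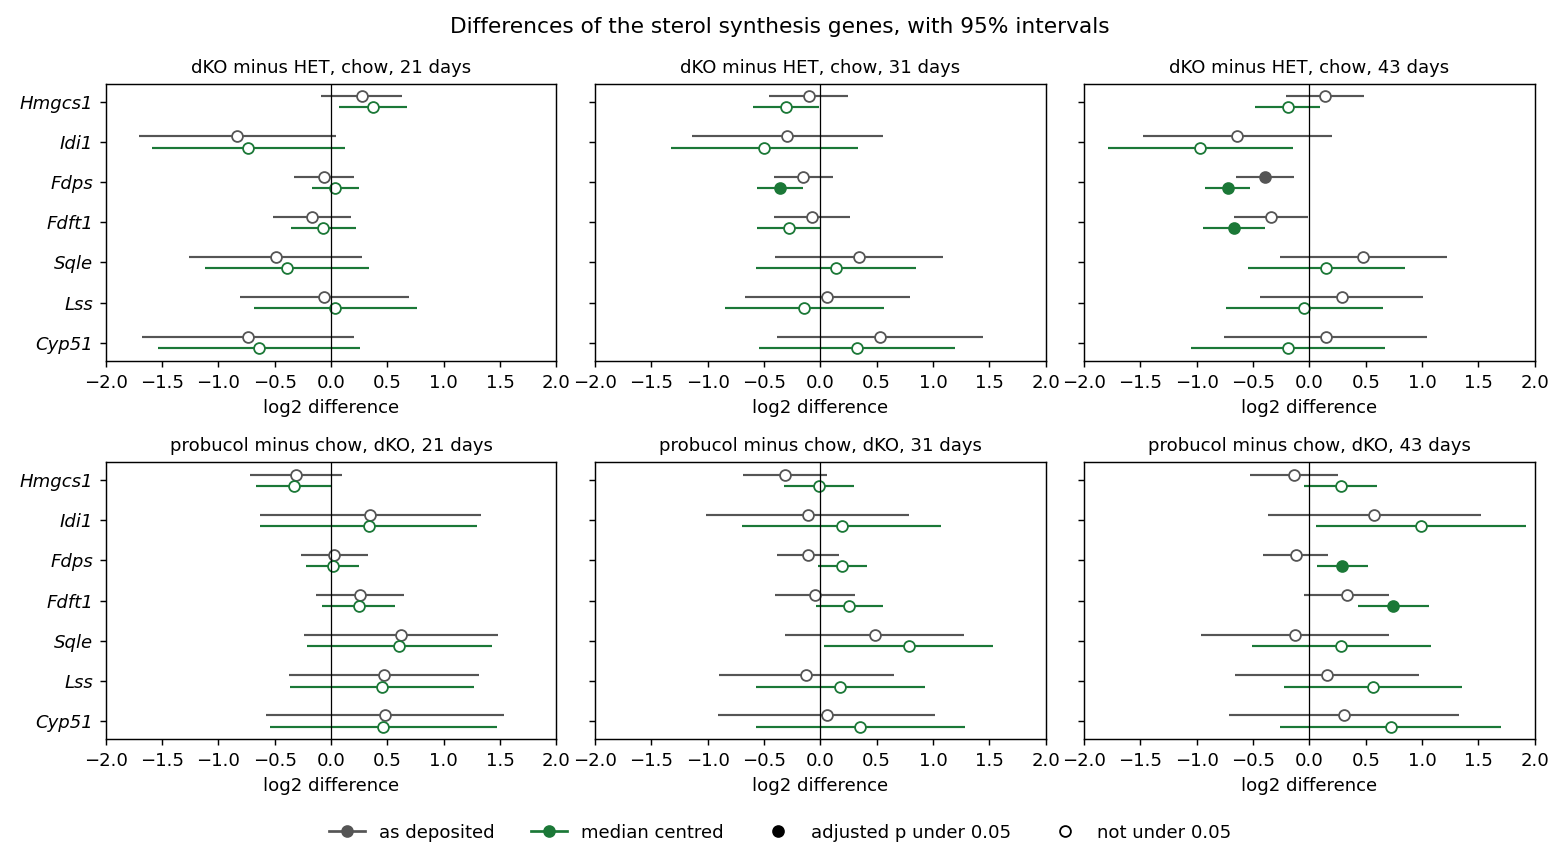
Log2 differences of the 7 genes for genotype on chow, dKO minus HET (top), and for probucol minus chow in dKO hearts (bottom) at 21, 31 and 43 days, with 95% intervals, from the fit over 8251 genes. Grey values are as deposited, green values follow median centring, and filled points have an adjusted p under 0.05. Fdps at 43 days on chow is filled on both scales, with -0.40 and -0.73, while Fdft1 is filled only after centring.

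In HET hearts probucol was tested on few animals. None of the 7 genes passed the test at any age, also before adjustment, with 0.388%, 0.582% and 0.141% of the 5671 filtered genes called at 21, 31 and 43 days, and 0.206%, 0.351% and 0.0606% of the 8251 without the filter. Fdps was 6.36, 6.95 and 7.11 in the 3 HET probucol hearts at 21 days, against 6.18, 6.54 and 7.58 in HET chow hearts. Idi1 at 43 days was 4.74 and 5.09 in the 2 HET probucol hearts, against 2.34, 4.36 and 5.11 in HET chow hearts, with a difference of 0.89 and an interval of -0.59 to 2.37. Between genotypes on probucol none of the 7 genes passed either, and 0%, 0% and 0.0176% of the filtered genes were called (0.0121% of the 8251 at 43 days). Before adjustment 1 of the 7, each on its brightest probe set, had a p under 0.05, Sqle at 43 days, with 1.45 and an interval of 0.08 to 2.81. Sqle was 2.335 and 4.669 in the 2 HET probucol hearts, the lower of them near the floor. In dKO probucol hearts it was 3.96, 5.23 and 5.55. Fdps on probucol at 43 days was 6.05, 6.58 and 6.78 in dKO hearts, against 6.72 and 6.87 in HET hearts, with a difference of -0.30 and an interval of -0.78 to 0.17. At 21 days its dimmer probe set 162281_at gave -1.21 (limma, p = 0.0397), which did not pass after adjustment.

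Age moved Fdft1 in both genotypes on chow. In dKO hearts it had medians of 6.24, 6.78 and 6.76 at 21, 31 and 43 days, and in HET hearts 6.45, 6.74 and 6.98. In dKO hearts it rose by 0.63 at 31 days and 0.59 at 43 days over 21 days (limma, adjusted p = 0.00134 and 0.000931), when 63.8% and 78.1% of all genes were called. The log2 ratio of the 3' to the 5' actin probe sets, a sign of RNA quality, averaged -0.165, 0.386 and 0.172 in dKO chow hearts and 0.0655, 0.239 and 0.109 in HET chow hearts at the successive ages. With that ratio as a covariate the rises of Fdft1 in dKO hearts were 0.54 and 0.53 (adjusted p = 0.0162 and 0.00428). In HET hearts, without the covariate, Fdft1 rose by 0.54 and 0.77 (adjusted p = 0.025 and 0.00183), when 16.8% and 19.7% were called. Between 31 and 43 days 0 of 3 genes passed in dKO or HET hearts, with 23.7% and 0.317% called, and 0 of 7 did so without the filter, with 16.7% and 0.242% called. After median centring Fdps was lower at 43 than at 31 days in dKO hearts by a difference of -0.39 (adjusted p = 0.00168, with 22.3% called), and Hmgcs1 gave -0.37 (adjusted p = 0.0506), which passed under quantile normalization with -0.39 (adjusted p = 0.0318). The median of all genes rose as well, by 0.50 and 0.67 in dKO hearts and by 0.19 and 0.27 in HET hearts. Relative to the array median Fdft1 therefore gave 0.10 and -0.13 in dKO hearts (adjusted p = 0.636 and 0.452) and 0.31 and 0.47 in HET hearts (adjusted p = 0.172 and 0.0463). On that scale 9.63% and 5.5% of all genes were called in HET hearts.

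Fdps and Hmgcs1 parted from the array median with age in dKO hearts. Fdps on its brightest probe set was 0.40 higher at 43 than at 21 days in HET hearts (adjusted p = 0.0311) and 0.07 higher in dKO hearts (adjusted p = 0.624). Hmgcs1 gave -0.10 in HET and -0.24 in dKO hearts over the same span (adjusted p = 0.729 and 0.201). After median centring dKO hearts gave -0.65 for Fdps and -0.96 for Hmgcs1 (adjusted p = 3.14e-08 and 1.96e-08, with 48.2% called), against 0.11 and -0.39 in HET hearts (adjusted p = 0.641 and 0.127). The other Fdps probe sets differed from this as deposited: 99098_at rose by 0.48 and 162281_at by 1.42 in dKO hearts (adjusted p = 0.000883 and 0.000312, with 64.8% of 10833 probe sets called).

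Among the dim genes Sqle and Lss rose with age in dKO chow hearts. Sqle was 2.63, 4.12 and 4.84 at 21 days and 4.14, 5.10 and 6.04 at 43 days, a rise of 1.24 (adjusted p = 0.00218, with 68.8% of the 8251 genes called). Lss rose by 0.79 (adjusted p = 0.0433), close to the rise of 0.68 in the median of all genes. After median centring Sqle gave 0.52 and Lss 0.07, and neither passed the test (adjusted p = 0.239 and 0.896). None of the 4 dim genes passed for 31 against 21 days, with 52.6% called in dKO and 10.2% in HET hearts. In HET chow hearts 43 against 21 days gave 0.27 for Sqle and 0.45 for Lss (adjusted p = 0.693 and 0.47).

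The next test was of the genotype difference itself on chow, at the older ages against 21 days. As deposited none of the 3 bright genes passed, with 14.9% of all genes called for 31 against 21 days and 39.4% for 43 against 21 days. Fdps gave -0.33 for 43 against 21 days, with an interval of -0.70 to 0.03. Without the filter 0 of 7 passed, with 13.5% and 30.3% called. After median centring the change by 43 days passed for Fdps with -0.76, Fdft1 with -0.60 and Hmgcs1 with -0.56 (adjusted p = 1.9e-05, 0.0165 and 0.0328, with 32.2% called). The change by 31 days then passed for Hmgcs1, with -0.68 (adjusted p = 0.0267, with 12.7% called). The difference of the probucol effect between dKO and HET hearts passed for 0 of 3 genes at every age, with 0.106%, 9.49% and 18.7% of all genes called. After centring it passed for Fdft1 at 43 days, with 0.94 (adjusted p = 0.0137, with 21.5% of all genes called), a contrast that rests on 2 HET probucol hearts.

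Other enzymes of the pathway, from a list of 14, had 10 with a signal and 5 past the filter. At 43 days on chow 37.3% of all genes were higher in dKO than in HET hearts and 11.6% were lower. Of the 5, 1 was higher and 0 were lower. That was Ebp, the sterol isomerase that acts after lanosterol demethylation, with a difference of 1.25 ± 0.23 (adjusted p = 2.67e-06), and it fell by 0.86 with probucol in dKO hearts (adjusted p = 0.0042), a call lost after median centring (-0.45, adjusted p = 0.172). Mvk, the mevalonate kinase, gave -0.04 and Nsdhl, which removes a carboxyl group from the sterol, gave 0.05 (adjusted p = 0.834 and 0.873). At 21 days Nsdhl was lower in dKO hearts by a difference of -0.89 (adjusted p = 0.022), when 1.39% of all genes were lower. The median of the 5 at 43 days was 0.05, against 0.26 for all genes.

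The lists around the pathway held calls in both directions. Of 5 tested genes of uptake, trafficking and SREBP control, 3 were higher and 1 was lower in dKO chow hearts at 43 days, when 37.3% of all genes were higher and 11.6% lower. The endosomal sterol carrier gene Npc2 gave 1.80, the scavenging receptor gene Lrp1 1.25 and the endosomal cholesterol transporter gene Npc1 0.37, while the lipoprotein receptor gene Vldlr gave -1.18 (adjusted p = 2.17e-24, 8.43e-16, 0.00364 and 4.08e-08). Npc1 gave 0.04 after median centring (adjusted p = 0.761). Of 6 lipogenic genes 5 were higher, among them Scd2 and Scd1, the stearoyl-CoA desaturases, with 1.74 and 1.66, and Srebf1 with 0.91 (adjusted p = 4.37e-21, 1.23e-10 and 3.78e-08). Of 5 LXR genes 4 were higher, with 2.63 for the cholesterol exporter gene Abca1 and 2.04 for the phospholipid transfer protein gene Pltp (adjusted p = 9.87e-26 and 6.33e-25), and the lipase gene Lpl was lower with -0.27 (adjusted p = 0.00655). Srebf1 and Abca1 already differed at 21 days, by 1.16 and 1.46 (adjusted p = 6.61e-09 and 3.99e-10), an age at which none of the 7 measured genes of the chosen set passed. Many of these genes are also expressed in macrophages, whose marker sum is given above.

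Probucol in dKO hearts moved the same lists at 43 days. Vldlr rose by 1.19, and Npc2 and Lrp1 fell by 1.71 and 1.30 (adjusted p = 8.83e-07, 1.03e-19 and 4.53e-14). Of the 6 lipogenic genes 3 fell, with -1.34 for Scd1, and of the 5 LXR genes 4 fell and Lpl rose, when 37.7% of all genes were lower and 8.2% higher. After median centring the falls of the LXR genes Abcg1 and Nr1h3 no longer passed (adjusted p = 0.0844 and 0.0537), and the lipogenic gene Me1 rose by 0.63 (adjusted p = 1.2e-05). Both comparisons use the same dKO chow hearts, so their opposite signs are not independent.

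**Figure D4:**
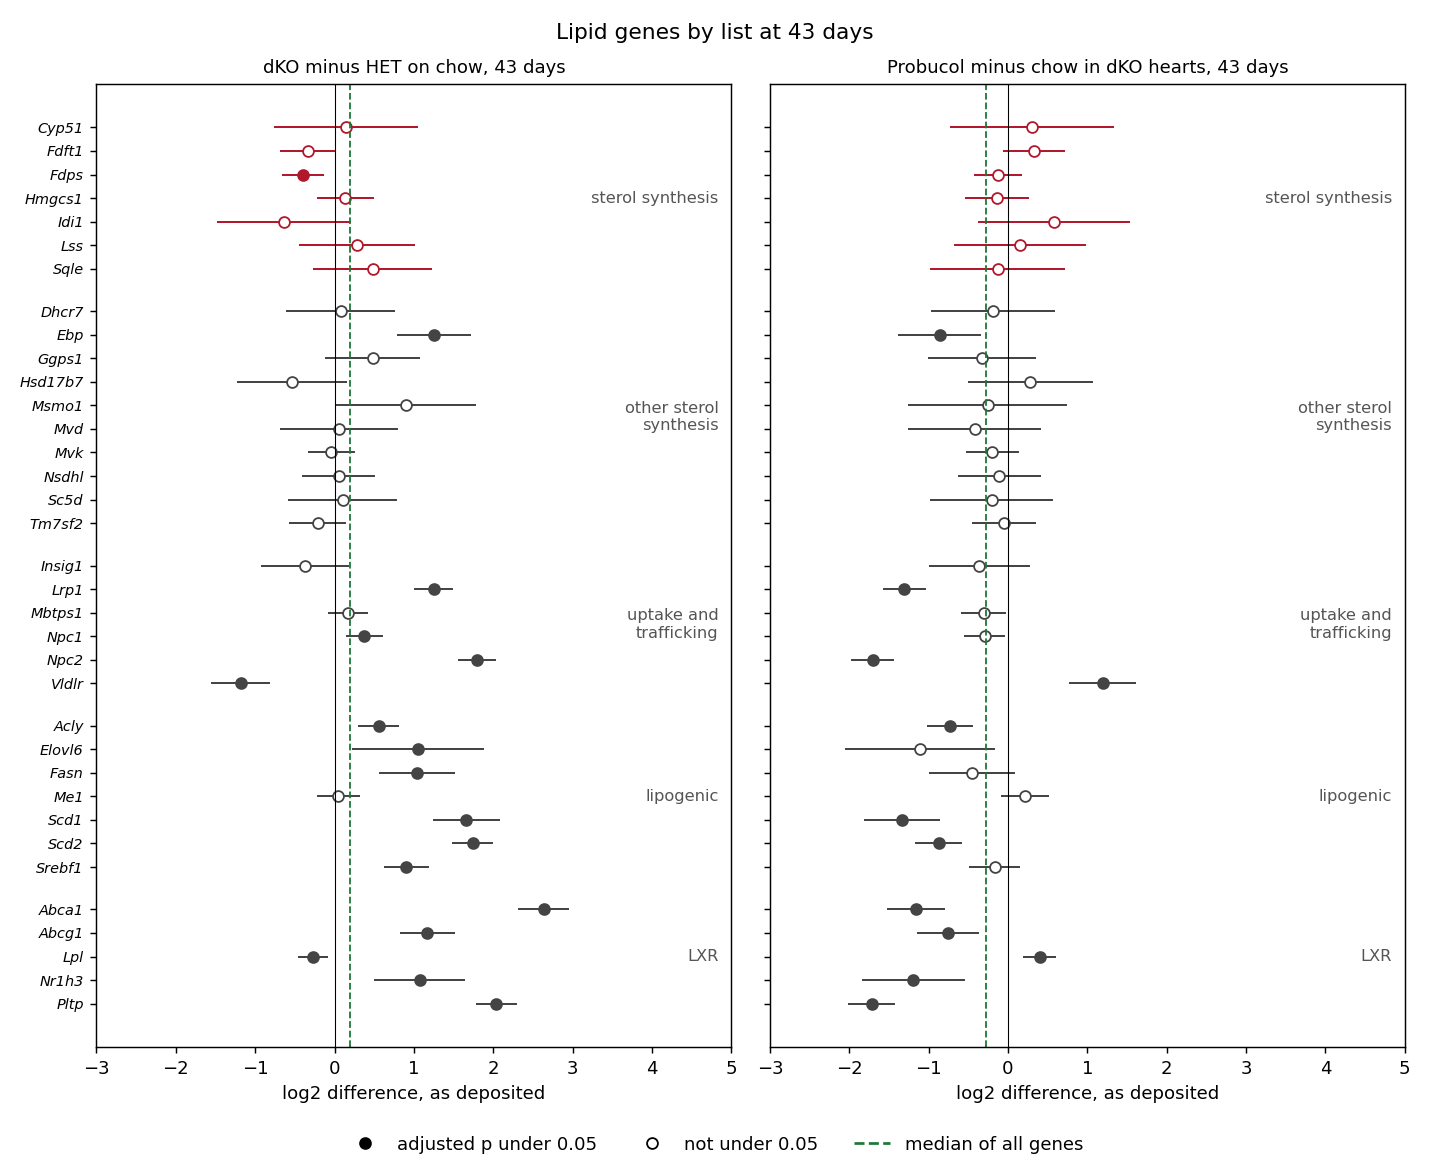
Log2 differences at 43 days, as deposited, for the sterol synthesis genes (red) and 4 further gene lists (grey), from the fit over 8251 genes, for dKO minus HET hearts on chow (left) and probucol minus chow in dKO hearts (right). Bars are 95% intervals, filled points have an adjusted p under 0.05 and the dashed line is the median of all genes. Of the 7 sterol synthesis genes 1 is filled on the left and none on the right, while Abca1, Pltp and Npc2 are filled on both sides.

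Across the 12 groups the 7 genes kept no common order. Hmgcs1 ran from a mean of 6.57 in HET probucol hearts at 21 days to 7.02 in HET chow hearts at 31 days, and Fdps from 6.49 in dKO probucol to 7.01 in HET chow hearts, both at 43 days. Fdft1 ran from 6.16 in dKO chow hearts at 21 days to 7.10 in HET chow hearts at 43 days. Sqle was highest in dKO chow hearts at 43 days, with 5.08, and Lss and Cyp51 in dKO probucol hearts at 43 days, with 4.15 and 4.70. For each gene all 11 pairs of neighbours in the order had overlapping ranges. Neighbours by mean are the groups most alike, so this does not show that all groups overlap. The highest Fdft1 value in dKO chow hearts at 21 days, 6.47, lay below the lowest in HET chow hearts at 43 days, 6.56.

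Within groups the genes moved together only weakly. Over the 88 arrays, taken as deviations from their group means, the 21 pairs of the 7 genes had a median Pearson r of 0.143, between -0.0779 and 0.302, and 0 of 21 had an adjusted permutation p for r under 0.05. The highest pair, Hmgcs1 and Sqle, had r = 0.302 and Spearman's rho = 0.285 (permutation p = 0.00971 and 0.013, adjusted 0.0739 and 0.0709). It had r = 0.222 without the 2 outermost arrays and 0.312 within the larger array set. These points share the brightness of their array, and after median centring the median r was -0.0278. On that scale Sqle and Fdps had the lowest r, -0.304, with rho = -0.34 (permutation p = 0.00507 and 0.00225, adjusted 0.106 and 0.0472), and r was -0.275 without the 2 outermost arrays and -0.178 within the larger array set. The genes most like the mean of the 3 bright genes, over the 12 group means of centred signals among 5668 genes, were Mrpl11 with r = 0.978, Hmgb3 with 0.968, Tuba4a with 0.966, Synj2bp with 0.958 and Rnf5 with 0.957. Per gene the closest were Klhl24 for Hmgcs1 with 0.923, Itga7 for Fdps with 0.931 and Mterf2 for Fdft1 with 0.939, and none of these 8 genes is in the pathway lists used here.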

How the data were processed

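The authors hybridised total RNA of each heart to its own Affymetrix array and deposited 1 linear signal (intensity) per probe set, made with MAS5 per the submitters' processing notes. A scaling of the arrays to one target is not given in these sources. The 12488 probe sets on 88 arrays were floored at the 10th percentile and taken to log2 with no further scaling. Genes were named from the platform annotation, where 10833 probe sets have 1 symbol and 396 have several. Probe sets in the upper 60% by mean were kept, with the brightest for each gene, leaving 5671 genes. The means of 12 groups were fitted with limma 3.58.1 in R 4.3.3 (trended eBayes), and 23 contrasts were adjusted by Benjamini-Hochberg at 0.05. In data simulated for the 43 day genotype contrast, 81% of genes changed by 1 and 35% of genes changed by 0.5 (log2) were called. Far fewer genes were changed there than were called in the real contrast, and only genes past the filter were simulated. These shares are therefore no measure of power in the real data or for the 4 dim genes. The members and gene lists were chosen with earlier results of these data known. All 8 genes were named, and up to 6 of each further list by smallest p. Alternatives covered scaling, floor, filter, probe sets, weights, covariates, blocks and left-out arrays. The number of arrays limits the precision. No sample was left out of the main values. The description of 1 dKO chow heart of 21 days, replicate 2, gives another age, and leaving it out is among the alternatives.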

Additional observations from a re-analysis of the deposited data

Results flagged for a closer look

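Each of the 10 probe sets was checked in each group of 4 to 10 hearts, which made 80 checks that reuse the same hearts. Of these 6 held 1 heart far from the others, where chance gives about 1 in 20. Hmgcs1 was 7.21 in replicate 2 of the dKO probucol hearts at 43 days, where the next highest was 6.62. Fdps on 160424_f_at was 7.58 in replicate 2 of the HET chow hearts at 21 days, with the next at 6.69, and on 99098_at it was 7.21 (7.205) in replicate 7 of the HET chow hearts at 31 days, with the next at 6.44. On the dim Fdps probe set 162217_r_at replicate 4 of the dKO chow hearts at 21 days had 2.72, with the next at 2.13, and replicate 5 at 31 days had 3.15, with the next at 2.59. Cyp51 was at the floor, 2.08, in replicate 2 of the dKO probucol hearts at 21 days, where the next lowest was 4.16.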

How the results depend on the processing

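Counts of called differences are given over all ages of a comparison: 1 for genotype on chow, 0 for probucol in dKO hearts, 0 for the change of the genotype difference with age, 0 for the difference of the probucol effect, 2 for age in dKO and 3 for age in HET chow hearts. In the same order quantile normalization and median centring each gave 3, 2, 4, 1, 5 and 1, centring plus an array set block gave 2, 2, 2, 1, 5 and 1, and median centring without the filter, chosen after seeing the data, gave 3, 2, 4, 1, 4 and 0. Age in dKO hearts gave 4 for the 3 genes with probe sets averaged or with array weights. It gave 4 for the 7 genes without the filter and 8 for the 10 probe sets each on its own. These last 2 settings hold more tests, so their counts are not like for like. For 31 against 21, 43 against 21 and 43 against 31 days, 52.6%, 68.8% and 16.7% of all genes were called without the filter. Of all probe sets 48.5%, 64.8% and 14.4% were called. Genotype on chow gave 2 with the array set as a block, and 0 with probe sets averaged or in the larger array set alone. The replicate numbers did not pair the samples (18 of 121 pairs correlated above 0.1, and in 0 of 18 contrasts did every pair), and with the replicate block these counts were 1, 0, 0, 0, 2 and 3. Leaving out the heart whose description gives another age also gave 1, 0, 0, 0, 2 and 3. Leaving out each of the 8 HET probucol hearts in turn, run for the comparisons that use them, gave 0 calls each time for the difference of the probucol effect. Of the Fdps differences, -0.40 at 43 days on chow stayed called in 15 of 17 alternatives.

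Signs turned mostly with scaling, and the cause was not tested. Under quantile normalization, median centring (with or without the filter) and centring plus the set block, the values were -0.22, -0.19 and -0.16 for Hmgcs1 between genotypes at 43 days. For probucol in dKO hearts they were 0.19, 0.20 and 0.17 for Fdps at 31 days, 0.27, 0.26 and 0.28 for Fdft1 at 31 days, 0.30, 0.29 and 0.29 for Fdps at 43 days, and 0.28, 0.28 and 0.28 for Hmgcs1 at 43 days. For age in dKO hearts they were -0.26, -0.26 and -0.13 for Fdps at 31 days, -0.67, -0.65 and -0.52 for Fdps at 43 days, and -0.14, -0.13 and -0.23 for Fdft1 at 43 days. Fdps between genotypes at 21 days gave 0.0307 and 0.0368 under the first 2 of these, 0.0201 with array weights and 0.11 in the larger set. With probe sets averaged Fdps gave 0.14 between genotypes and 0.15 for probucol in dKO hearts at 31 days, 0.21 for the change of the genotype difference and 0.0598 for 43 against 31 days in dKO hearts. Array weights gave 0.0682 for Hmgcs1 and 0.0338 for Fdft1 between genotypes at 31 days, 0.0859 for the change of the Hmgcs1 difference by 43 days and 0.0754 for Hmgcs1 at 31 against 21 days in dKO hearts. The actin ratio as a covariate gave 0.0151 (Fdft1, probucol in dKO hearts at 31 days) and 0.0849 (Hmgcs1, 31 against 21 days in dKO hearts), and the larger set gave 0.0422 and 0.0775 for the same 2, and -0.0302 for Fdps with probucol in dKO hearts at 21 days. Dim signals near the floor limit what could be seen of Idi1, Lss, Cyp51 and Sqle.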

Other observations

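Idi1 was the sterol synthesis gene whose 6 dKO group means all lay below its 6 HET group means, from 3.36 in dKO chow hearts at 21 days to 4.92 in HET probucol hearts at 43 days. A contrast of genotype averaged over the 3 ages and both diets, chosen after these levels had been seen and so no independent evidence, gave a mean of 3.64 in dKO and 4.37 in HET hearts. The difference was -0.73 ± 0.24 (SE; limma, adjusted p = 0.0366, with 10% of 8251 genes called), -0.79 after median centring (adjusted p = 0.0156) and -0.74 with the array set as a block (adjusted p = 0.0371). By p it ranked 749 of 8251, so it was not unusual among genes. Fdps gave -0.19 in the same contrast (adjusted p = 0.0893), and -0.25 after median centring (adjusted p = 0.00106).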
